A study of Mus musculus with 6 samples.

Results

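Translation initiation and elongation factors were taken as every gene whose symbol starts with Eif or Eef and a digit, the kinases of eIF2 included, and they made up 67 of the 12894 genes measured in newborn mouse epidermis. Eif4ebp1 and the Y-linked Eif2s3y fit that pattern and are not counted among them. By their names 62 are factors, subunits, kinases, binding partners or methyltransferases, and the other 5 carry symbols that mark a pseudogene. All 67 passed the filter on low values. Of the symbols on the lists of factors, Eef1a2, Eef1aknmt, Eif1ad2, Eif4a3l1, Eif4a3l2, Eif4e1b, Eif4e3 and Eif4ebp3 were not analysed here.

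Bulk RNA sequencing compared 3 libraries with the genotype label Hnrnpu knockout, named knockouts 1 to 3 below, with 3 control libraries. All came from epidermis of C57BL/6 mice at postnatal day 0, taken off the dermis, and the knockout was made by a loxP-Cre system. Control 1 has the genotype label Wild type, and controls 2 and 3 have the label Heterogenous. The sources used here do not name the Cre driver or say whether the controls carried Cre or floxed alleles. Hnrnpu encodes a nuclear RNA-binding protein.

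Eukaryotic translation starts when eIF2 brings the initiator tRNA to the small ribosomal subunit, eIF3 scaffolds that complex, and eIF4F, built from a cap-binding protein, a helicase and a scaffold, recruits the mRNA. eIF1 and eIF1A police the choice of start codon, and eIF5 and eIF5B complete the joining of the large subunit. The elongation factors eEF1 and eEF2 then deliver aminoacyl-tRNA and move the ribosome along. Output is held back at known control points: phosphorylation of eIF2 by its kinases, capture of eIF4E by 4E-binding proteins, and phosphorylation of eEF2 by eEF2 kinase.

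Of the 67 genes, 18 were higher and 4 lower in the knockout libraries past a Benjamini-Hochberg adjusted p of 0.05 over all 12872 genes tested (limma), which is 26.9% and 5.97% of them. Over all genes tested 17.7% were called higher and 15.9% lower. Taken in either direction the 22 calls are 32.8% of the 67, against 33.6% of all genes. The values of the 2 groups did not overlap for 32 of the 67 with the knockout libraries above and for 8 with them below, or 47.8% and 11.9%, against 25.8% and 25% of all genes. The median log2 change was 0.236 for the 67 and −0.022 for all genes, with 47 positive and 20 negative changes. The genes called higher were in the start codon group, eIF2 and its exchange factor, eIF3, the cap-binding protein Eif4e, eIF5A and pseudogenes, and the genes called lower were Eif2b1, Eif4ebp2, Eef2k and Eef1akmt3.

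The balance depended on the scaling and on the libraries. With library totals set equal, which lowered the median of all genes to −0.36, the counts were 9 higher and 8 lower among the 67, or 13.4% and 11.9%, against 11.2% and 23.8% of all genes. The median of the 67 then was −0.106, which lay 0.253 above that of all genes, against 0.258 on the deposited scale. With quantile normalization their median was 0.004, 0.067 above that of all genes, and 20.9% of them were called higher and 8.96% lower, against 17.2% and 17.2% of all genes. Without control 1, 2 or 3 the counts fell to 7, 9 and 8 higher, or 10.4%, 13.4% and 11.9% of the 67. Over all genes 11.9%, 12.1% and 11.8% were called higher. The share of the 67 thus lay below that of all genes without control 1, and a little above it without control 2 or 3. The 3 called lower each time are 4.48% of the 67, against 8.98%, 8.61% and 8.68% of all genes.

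The libraries also differed in ways that bear on these genes. Normalized counts summed to 8191409, 10987666 and 8469679 in knockouts 1 to 3, against 6850663, 7328810 and 7453638 in controls 1 to 3, at an estimated 6460000 to 9110000 assigned reads per library. The 67 genes took 1.57%, 1.41% and 1.66% of the total in knockouts 1 to 3, against 1.46%, 1.47% and 1.46% in controls 1 to 3. Knockout 2 had the highest total and the most Krt14, a basal keratin (115330 normalized counts). The other 5 basal markers summed to 10109 in knockout 2, below each control (11397 to 30608). Knockout 2 also had the fewest estimated reads (6460000), with 1 read worth 1.70 normalized counts. Among the knockout libraries it had the highest value in 16 of the 18 genes called higher and in 37 of all 67. That share was not counted over all genes. In bulk tissue a change in the share of a cell type and a change in RNA per cell cannot be told apart.

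Hnrnpu itself had 1565, 1342 and 1036 normalized counts in knockouts 1 to 3, against 1450.3, 1318 and 1159.9 in controls 1 to 3, a log2 difference of −0.01 ± 0.20 (SE, n = 3 and 3, limma adjusted p = 0.976). The labels do not name the deleted part, so the gene count does not check the genotype, and every direction below rests on the labels. Xist had 1.87, 5656 and 4758 normalized counts in knockouts 1 to 3, against 0, 0.885 and 3.27 in controls 1 to 3, and Ddx3y, Kdm5d, Eif2s3y and Uty were listed at 0 in knockouts 2 and 3 and not elsewhere. This is the pattern of females in knockouts 2 and 3 and of males in the other libraries, though the labels give no sex. By these transcripts sex was not balanced between the groups, and the fit held no term for it. With knockout 1 alone against the controls, a setting chosen after seeing the data, 5 of the 67 were called higher and 3 lower, or 7.46% and 4.48%, against 10.2% and 11% of all genes. All 7 melanocyte markers were called higher, their sum lying between 2829 and 4682 in the knockout libraries, against 412 to 585.9 in the controls. Of 4 fibroblast markers measured 3 were called higher (sums of 440.2 to 515.8 in the knockout libraries, against 136.5 to 391.1 in the controls), and of 6 leukocyte markers 1 was higher and 1 lower (sums of 131.8 to 1014 in the knockout libraries, against 224 to 393.2 in the controls). The 6 markers of basal keratinocytes summed to 31090 to 125400 in the knockout libraries, against 14600 to 40920 in the controls, but most of the knockout sum was Krt14, the marker called higher. The other 5 summed to 9322 to 24410 in the knockout libraries, against 11400 to 30610 in the controls, and over all 6 the median log2 change was −0.614, with 4 negative. With the replicate block, which pairs adjacent animal numbers, Krt5, Itga6, Col17a1 and Trp63 passed as lower (limma adjusted p = 0.0374, 0.00148, 0.0315 and 0.0258) and Itgb4 as higher (0.00788). The 6 of differentiated keratinocytes summed to 544100 to 828700 in the knockout libraries, against 774200 to 861400 in the controls, with none called by limma (1, Dsg1a, had an unadjusted p under 0.05). Dsg1a was called lower with the block (adjusted p = 0.016), with totals set equal (0.00762) and with quantile normalization (0.00192), as were Krt10 (0.0166) and Flg (0.0333) with totals set equal and Lor (0.0194) with quantile normalization. Pecam1, the endothelial marker measured, ranged from 6.54 to 59.5 in the knockout libraries, against 2.66 to 5.72 in the controls, and was not called. No marker measured was listed at 0 in any library, and the part of other cell types in the results was not tested.

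**Figure D1:**
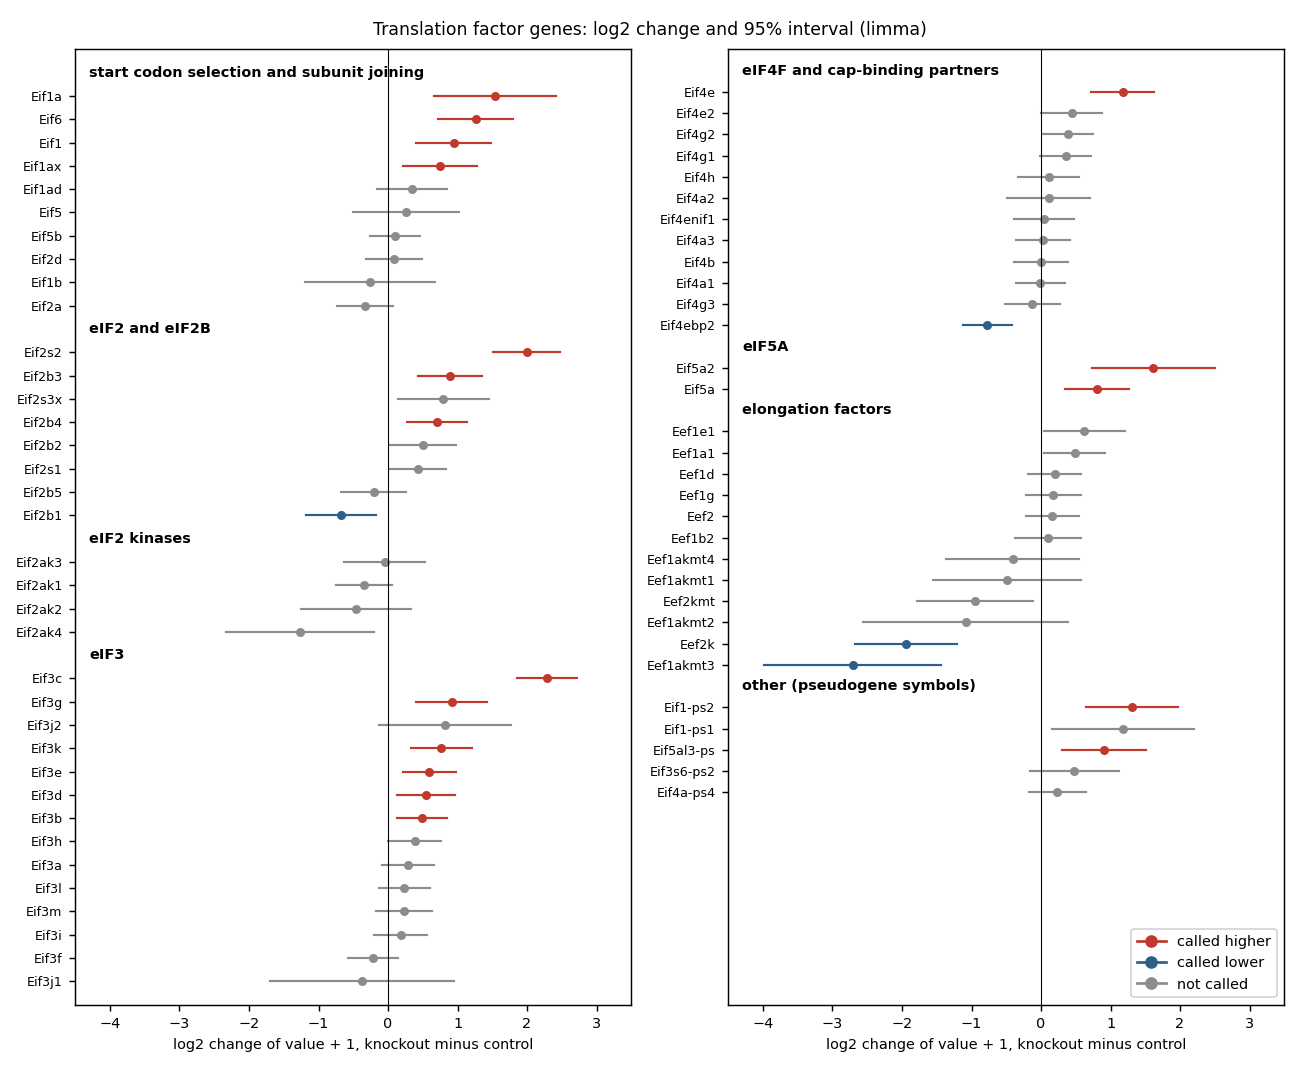
Log2 change (knockout minus control) with its 95% interval for each of the 67 genes, grouped by role, from limma on 3 knockout and 3 control libraries. Red marks the 18 genes called higher, blue the 4 called lower and grey the others, from Eif3c at 2.29 to Eef1akmt3 at −2.71.

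The promoters of these genes were searched for an E-box, the letters CACGTG, and for TGATGNAA, a composite site of ATF4 and C/EBP, in the 300 bases from 250 before the start to 50 after it, on both strands. RefSeq (GRCm38.p6) gave 1 promoter or more for 50 of the 67 genes, and a match in any of them counted. CACGTG stood in 13 of the 50, or 26.0%, against 12.0% of 9052 measured genes with a promoter and 7.15% of 32851 promoters in all. By call it stood in 4 of 12 genes called higher, in 1 of 3 called lower and in 8 of 35 not called. TGATGNAA stood in Eef2k and Eif2s3x, or 4.0% of the 50, against 2.84% of measured genes and 3.97% of all promoters. A match describes these letters and is not evidence of binding. Shown 5′ to 3′ on the gene's own strand, with CACGTG in capitals, are promoters of 3 genes called higher and 1 of Eef2k, which was called lower. Where a gene had more than 1 record, the one with the most copies of CACGTG was taken. The record shown for Eef2k holds no TGATGNAA. Eif5a, the other gene called higher with CACGTG, is not shown. Eif4e (chr3:138527018-138527317, plus strand) and Eif5a2 (chr3:28781027-28781326, plus strand) hold 2 copies each, while Eif3k (chr7:28981839-28982138, minus strand) and Eef2k (chr7:120842581-120842880, plus strand) hold 1.
Eif4e: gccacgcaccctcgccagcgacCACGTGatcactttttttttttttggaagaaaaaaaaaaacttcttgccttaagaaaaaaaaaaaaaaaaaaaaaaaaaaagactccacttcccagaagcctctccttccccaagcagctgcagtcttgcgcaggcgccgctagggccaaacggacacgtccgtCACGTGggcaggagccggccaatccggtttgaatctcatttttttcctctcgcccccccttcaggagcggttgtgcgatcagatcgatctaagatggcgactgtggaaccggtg
Eif5a2: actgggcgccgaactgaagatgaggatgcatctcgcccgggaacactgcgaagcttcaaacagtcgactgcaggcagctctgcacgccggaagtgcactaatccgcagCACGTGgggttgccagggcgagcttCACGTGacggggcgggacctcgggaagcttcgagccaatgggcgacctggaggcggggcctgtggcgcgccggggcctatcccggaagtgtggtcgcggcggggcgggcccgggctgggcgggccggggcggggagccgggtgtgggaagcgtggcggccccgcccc
Eif3k: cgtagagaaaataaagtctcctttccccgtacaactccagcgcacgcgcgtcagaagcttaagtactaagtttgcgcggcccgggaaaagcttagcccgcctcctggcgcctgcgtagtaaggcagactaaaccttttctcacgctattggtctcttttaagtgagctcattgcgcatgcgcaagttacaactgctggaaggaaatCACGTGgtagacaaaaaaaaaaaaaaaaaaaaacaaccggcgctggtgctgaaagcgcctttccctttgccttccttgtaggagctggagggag
Eef2k: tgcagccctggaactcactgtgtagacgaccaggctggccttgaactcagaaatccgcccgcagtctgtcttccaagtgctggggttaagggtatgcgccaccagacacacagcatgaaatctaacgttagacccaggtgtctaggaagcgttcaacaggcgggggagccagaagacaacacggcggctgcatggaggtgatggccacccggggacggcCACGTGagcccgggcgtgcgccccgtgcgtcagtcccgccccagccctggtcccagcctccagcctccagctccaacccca
The copies begin 228 and 64 bases before the start in Eif4e, 142 and 117 before it in Eif5a2, 44 before it in Eif3k and 31 before it in Eef2k.

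Among 10 genes of start codon selection and subunit joining, 4 were higher in the knockout libraries and 0 lower, against 17.7% and 15.9% of all genes. The median log2 change of the 10 was 0.302 (−0.04 with totals set equal). The 4 were Eif1a, Eif6, Eif1 and Eif1ax. Eif1a (ENSMUSG00000057561) and Eif1ax (ENSMUSG00000067194, on the X chromosome) both encode eIF1A, which helps the scanning complex find the start codon. Eif1a had 1483, 2414 and 739.6 normalized counts in knockouts 1 to 3, against 424, 593 and 426 in controls 1 to 3, and all knockout values lay above all control values although knockout 3 was far below the other two. Its log2 change was 1.54 ± 0.39 (SE, limma adjusted p = 0.0174). Eif1ax had 986, 1817 and 1154 normalized counts in knockouts 1 to 3, against 744, 759 and 766 in controls 1 to 3, with the controls within a narrow band and knockout 2 standing highest. The change was 0.75 ± 0.23 on the log2 scale (limma adjusted p = 0.0382). Together the 2 genes gave 2469, 4231 and 1894 normalized counts in knockouts 1 to 3, against 1169, 1352 and 1192 in controls 1 to 3, and Eif1a made up 60.1%, 57.1% and 39.1% of that sum, against 36.3%, 43.9% and 35.7%.

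Eif6 (ENSMUSG00000027613) encodes the factor that keeps the large subunit from joining too early and also serves its biogenesis. It had 1982, 3243 and 2022 normalized counts in knockouts 1 to 3, against 854, 1182 and 929.7 in controls 1 to 3, so that every knockout library held more than every control. The change of 1.26 ± 0.24 (limma adjusted p = 0.00529) passed the threshold in all 16 alternatives. Eif1 (ENSMUSG00000035530), which encodes the guardian of start codon fidelity and had the highest mean of the group, had 2800.2, 5032 and 3199 normalized counts in knockouts 1 to 3, against 1666, 1880.2 and 2022 in controls 1 to 3. Knockout 2 stood well above the other libraries, and the log2 change was 0.94 ± 0.24 (limma adjusted p = 0.017). Of the 4 calls in this group, 3 depended on single libraries. That of Eif1 was lost without control 1 or 2 (limma adjusted p from 0.056 to 0.0653), that of Eif1a without control 1 or 3 (0.0572 to 0.0582), and that of Eif1ax without any 1 control or without knockout 2 (0.0612 to 0.101). Eif1ax also lost its call with totals set equal (adjusted p = 0.0926), with quantile normalization (0.0512) and without the trend (0.0731). With knockout 1 alone against the controls the change of this X-linked gene was 0.382 and was not called (0.197).

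The other 6 genes of the group, Eif1ad, Eif1b, Eif2a, Eif2d, Eif5 and Eif5b, were not called. Eif5, which encodes the activator of GTP hydrolysis by eIF2, had 2615, 3396 and 1242 normalized counts in knockouts 1 to 3, against 1965, 1731 and 1895 in controls 1 to 3, with 2 knockout libraries above and 1 below all controls. Its log2 difference was 0.26 ± 0.33, and without knockout 3 it was 0.679 (limma adjusted p = 0.0308). Eif2a, a proposed alternative carrier of initiator tRNA, distinct from the α subunit of eIF2, had 225, 274 and 275 normalized counts in knockouts 1 to 3, against 338, 330.3 and 305 in controls 1 to 3. Its values did not overlap, with the knockout libraries below (−0.33 ± 0.18, limma adjusted p = 0.177), and with totals set equal it was called lower (limma adjusted p = 0.0312).

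There were 8 genes for eIF2, the GTPase that carries the initiator tRNA, and eIF2B, its exchange factor. Of these, 3 were higher and 1 was lower in the knockout libraries, against 17.7% and 15.9% of all genes. The median log2 change of the 8 was 0.605 (0.264 with totals set equal and 0.509 with quantile normalization). Totals set equal left 1 higher and 1 lower (11.2% and 23.8% of all genes). Quantile normalization left 3 higher and 1 lower (17.2% and 17.2% of all genes). Eif2s2 (ENSMUSG00000074656), which encodes the β subunit of eIF2, was about 4.08 times its control mean. It had 1294, 2125 and 1440.4 normalized counts in knockouts 1 to 3, against 384, 419.6 and 386 in controls 1 to 3, and every knockout library lay far above every control. The log2 change was 1.99 ± 0.21 (limma adjusted p = 0.000491) and its call held in all 16 alternatives. Eif2s1, the α subunit that the kinases phosphorylate, had 552, 582 and 709 normalized counts in knockouts 1 to 3, against 418, 456 and 493 in controls 1 to 3. Those groups did not overlap, yet the change of 0.42 ± 0.18 missed the threshold (limma adjusted p = 0.0959, 0.0475 with the replicate block of adjacent animal numbers).

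Eif2s3x, the X-linked gene of the γ subunit, had 1086, 1956 and 2451 normalized counts in knockouts 1 to 3, against 943, 1126 and 937 in controls 1 to 3. Knockout 1 lay within the controls, and the other knockout libraries, which are those with Xist RNA, lay above them. The log2 difference of 0.80 ± 0.29 was not called (limma adjusted p = 0.0623), but it was without knockout 1 (0.00779) and with the replicate block (0.0235), and with knockout 1 alone against the controls it was 0.121. Summed with its Y-linked copy Eif2s3y it gave 1280, 1956 and 2451 normalized counts in knockouts 1 to 3, against 1247, 1498 and 1239.5 in controls 1 to 3, and these groups overlap. No 50-base stretch was shared between Eif2s3x and Eif2s3y, whereas 34.59% of those of Eif2s3x occur in Gm2223, so the count of Eif2s3x is uncertain. Gm2223 had 396, 834 and 868 normalized counts in knockouts 1 to 3, against 395, 394 and 427 in controls 1 to 3. Its log2 difference was 0.70 ± 0.30 (limma adjusted p = 0.0982).

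The subunits of eIF2B went both ways. Eif2b3, of the catalytic γ subunit, had 146, 175 and 155 normalized counts in knockouts 1 to 3, against 89.1, 79.7 and 86.6 in controls 1 to 3, with a wide gap between the groups and a log2 change of 0.89 ± 0.20 (limma adjusted p = 0.0118). Eif2b4, of the regulatory δ subunit, had 292, 386 and 323 normalized counts in knockouts 1 to 3, against 192, 209 and 208 in controls 1 to 3 and changed by 0.70 ± 0.19 (limma adjusted p = 0.0217), again without overlap. Eif2b1, of the regulatory α subunit, was lower, with 170.1, 153 and 237 normalized counts in knockouts 1 to 3, against 263, 299 and 320.4 in controls 1 to 3 and a change of −0.67 ± 0.22 (limma adjusted p = 0.0457). Eif2b2, of the regulatory β subunit, had 247, 281 and 198 normalized counts in knockouts 1 to 3, against 176, 182 and 149.6 in controls 1 to 3, which did not overlap but was not called (0.51 ± 0.21, limma adjusted p = 0.0915, 0.0435 with the replicate block, 0.0495 without knockout 3). Eif2b5, of the catalytic ε subunit, was at −0.21 ± 0.20 and overlapped. The call of Eif2b3 was lost without control 2 (limma adjusted p = 0.0509), that of Eif2b4 without any 1 control or knockout 2 (0.0522 to 0.0785), and that of Eif2b1 without any 1 control or knockout 1 or 2 (0.0818 to 0.141). With totals set equal neither Eif2b3 (adjusted p = 0.0839) nor Eif2b4 (0.139) was called, and without the trend Eif2b1 was not (0.0692). Exons of Eif2b4 overlap those of Snx17 on the opposite strand, and Snx17 differed by −0.11 ± 0.18 (limma adjusted p = 0.665).

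None of the 4 kinases that phosphorylate eIF2 was called by limma, and 1 of them, Eif2ak4, had an unadjusted p under 0.05. All 4 log2 differences were negative, with a median of −0.405. Eif2ak4, the amino acid sensor GCN2, had 40.2, 25.5 and 14.4 normalized counts in knockouts 1 to 3, against 77.0, 80.6 and 36.0 in controls 1 to 3, with knockout 1 above control 3. The difference was −1.27 ± 0.47 (limma adjusted p = 0.0657), and it passed the threshold without control 3 or knockout 1 (0.0419 to 0.0469), with totals set equal (0.0397) and with the replicate block (0.012). Eif2ak1, the heme-regulated kinase and the one with the highest mean, had 262, 266 and 258 normalized counts in knockouts 1 to 3, against 304, 385 and 318 in controls 1 to 3, so that all knockout libraries lay below all controls. Its difference of −0.35 ± 0.18 was not called (limma adjusted p = 0.16), and with totals set equal it was (0.032). Eif2ak2, the double-stranded RNA sensor PKR, and Eif2ak3, the endoplasmic reticulum stress sensor PERK, overlapped between the groups, at −0.46 ± 0.35 and −0.05 ± 0.25.

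The 14 genes of eIF3, the scaffold of the small-subunit complex, held 6 called higher and 0 called lower, against 17.7% and 15.9% of all genes. The median log2 change of the 14 was 0.436, and 12 changes were positive. Quantile normalization left 3 higher and 1 lower (17.2% and 17.2% of all genes). Totals set equal left 2 higher and 1 lower (11.2% and 23.8% of all genes). Eif3c (ENSMUSG00000030738), which encodes a core subunit, was about 4.97 times its control mean and had the largest rise of all 67 genes. It had 4438, 6148 and 4199 normalized counts in knockouts 1 to 3, against 1029.8, 954 and 992 in controls 1 to 3, with the controls within a narrow band and all knockout values far above it. The log2 change was 2.29 ± 0.19, its 95% interval running from 1.86 to 2.72 (limma adjusted p = 0.000153), and the call held in all 16 alternatives.

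Set against its partners per kilobase of merged exons, the level of Eif3c was 1312, 1817 and 1241 normalized counts per kilobase in knockouts 1 to 3, against 304, 282 and 293 in controls 1 to 3. The median of the other 13 genes was 482, 548 and 469 per kilobase in knockouts 1 to 3, against 327, 352 and 346 in controls 1 to 3. Eif3c ranked first of the 14 in each knockout library, and 8, 10 and 10 in controls 1 to 3. The ratio of its level per kilobase to that median was 2.72, 3.31 and 2.64 in knockouts 1 to 3, against 0.932, 0.801 and 0.847 in controls 1 to 3.

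**Figure D2:**
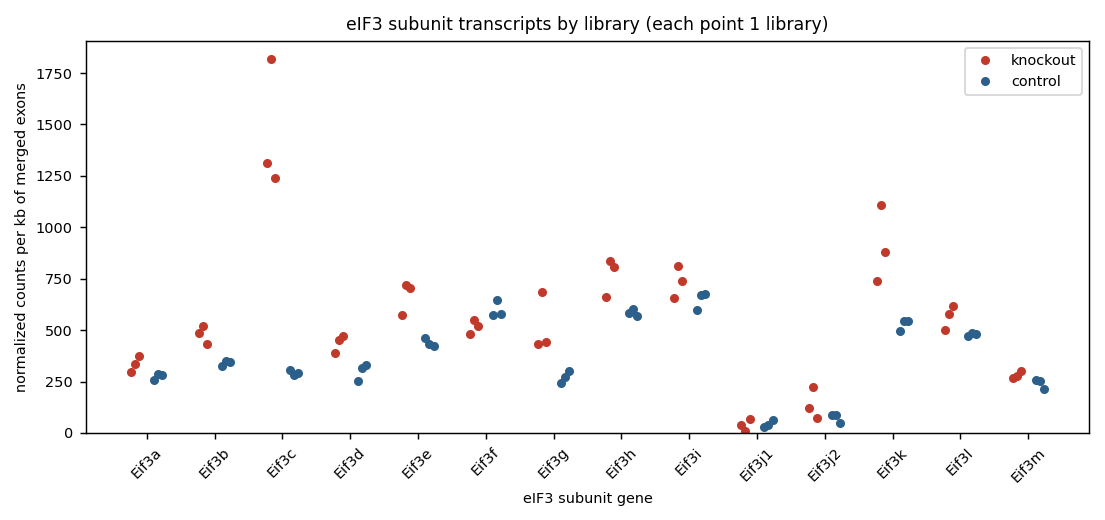
Normalized counts per kilobase of merged exons for the 14 eIF3 genes, each point 1 library, knockout left of control for each gene. Eif3c lies between 1241 and 1817 in the knockout libraries and between 282 and 304 in the controls, while Eif3k, the highest of the others in the knockout libraries, reaches 1108.

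The other 5 rises in eIF3 were smaller. Eif3g, of an RNA-binding subunit, had 477, 757 and 489 normalized counts in knockouts 1 to 3, against 266, 298 and 332 in controls 1 to 3, with knockout 2 the highest and no overlap (0.91 ± 0.23, limma adjusted p = 0.0162). Eif3k, of a small peripheral subunit, had 795, 1191 and 946 normalized counts in knockouts 1 to 3, against 534, 584 and 588 in controls 1 to 3 and changed by 0.76 ± 0.19 (limma adjusted p = 0.0176). Eif3e, whose subunit has been studied as the mouse Int6 gene, had 864, 1082 and 1064 normalized counts in knockouts 1 to 3, against 696, 654 and 635 in controls 1 to 3, a log2 change of 0.59 ± 0.17 (limma adjusted p = 0.0271). Each of these rose without overlap between the groups. Eif3d, of a subunit that can itself bind the cap, had 735, 854 and 891 normalized counts in knockouts 1 to 3, against 478, 596 and 628 in controls 1 to 3, and its groups were set apart by less (0.55 ± 0.18, limma adjusted p = 0.0471). Exons of Eif3d overlap those of Gm17638 on the opposite strand, in which 37.18% of its 50-base stretches occur. Gm17638 differed by 0.24 ± 0.33 (limma adjusted p = 0.595). Eif3b, of the subunit that holds the eIF3g and eIF3i module, had 1428, 1535 and 1281 normalized counts in knockouts 1 to 3, against 962, 1037 and 1019 in controls 1 to 3, a rise of 0.49 ± 0.16 (limma adjusted p = 0.0435).

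These 5 calls depended on single libraries, and 4 of them on the scaling. Eif3g lost its call without control 1 or 2 (limma adjusted p from 0.054 to 0.063) and Eif3k without any 1 control (0.0524 to 0.0667). Eif3e and Eif3d lost theirs without any 1 control or knockout 2 or 3 (0.0574 to 0.0945 and 0.0784 to 0.166), and Eif3b without any 1 control or knockout 1 or 2 (0.0786 to 0.136). With totals set equal Eif3k (adjusted p = 0.0642), Eif3e (0.271), Eif3d (0.394) and Eif3b (0.474) were not called, and these last 3 were not with quantile normalization or without the trend either (0.0553 to 0.207). Eif3f, which was not called, had 1211, 1378 and 1304 normalized counts in knockouts 1 to 3, against 1437, 1622 and 1456 in controls 1 to 3, below in each knockout library (−0.21 ± 0.16, limma adjusted p = 0.311), and was called lower with totals set equal (adjusted p = 0.0269) and with quantile normalization (0.0284).

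Eif3j1 and Eif3j2, a pair of genes for the loosely bound j subunit, share sequence: 90.77% of the 50-base stretches of Eif3j2 occur in Eif3j1 and 36.59% of those of Eif3j1 occur in Eif3j2, so the split of reads between them is uncertain. Eif3j1 had 210.3, 64.0 and 368 normalized counts in knockouts 1 to 3, against 159, 202 and 341 in controls 1 to 3, and Eif3j2 had 286, 528 and 176 normalized counts in knockouts 1 to 3, against 208, 213 and 109.7 in controls 1 to 3. Within each gene the values scattered widely and overlapped. Their sum was 497, 592 and 544 normalized counts in knockouts 1 to 3, against 366, 415 and 450 in controls 1 to 3, with no overlap. The share of Eif3j1 in that sum was 42.4%, 10.8% and 67.7% in knockouts 1 to 3, against 43.4%, 48.8% and 75.6% in controls 1 to 3. Eif3j2 alone passed the threshold with the replicate block (limma adjusted p = 0.0171) and without knockout 3 (0.0405). The remaining 5 subunit genes, Eif3a, Eif3h, Eif3i, Eif3l and Eif3m, had small positive changes that were not called, and those of Eif3a, Eif3i, Eif3l and Eif3m turned negative in 1 or 2 of the 16 alternatives each.

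**Figure D3:**
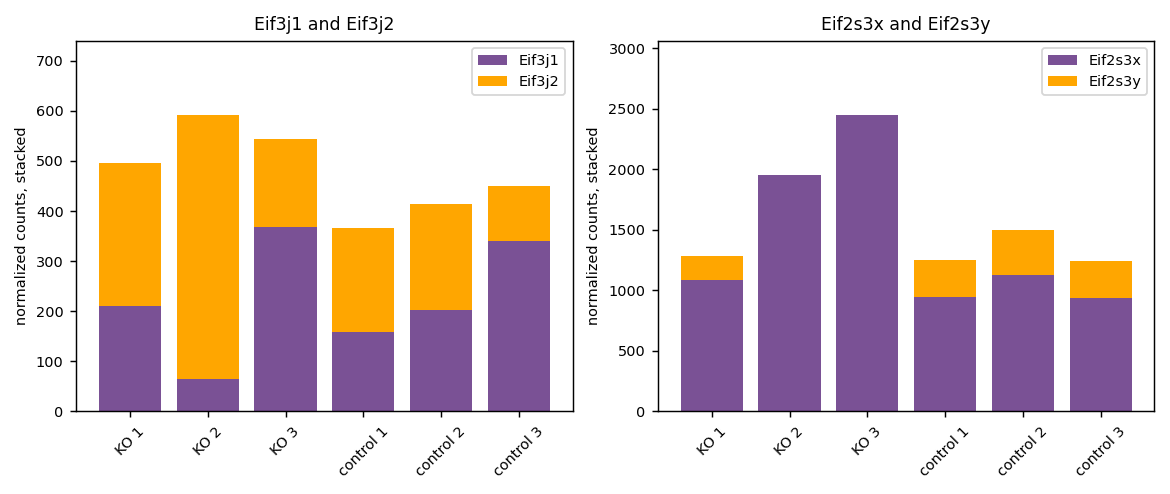
Stacked normalized counts per library of Eif3j1 with Eif3j2 (left panel) and of Eif2s3x with its Y-linked copy Eif2s3y (right panel), knockouts 1 to 3 left of controls 1 to 3. The sum of Eif3j1 and Eif3j2 lies between 497 and 592 in the knockout libraries and between 366 and 450 in the controls, while Eif2s3y is listed at 0 in knockouts 2 and 3.

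The eIF4F group held 12 genes for the cap-binding complex and its partners. Here 1 was higher and 1 lower in the knockout libraries, against 17.7% and 15.9% of all genes. The median log2 change of the 12 was 0.075 (−0.266 with totals set equal and −0.209 with quantile normalization). The gene called higher was Eif4e (ENSMUSG00000028156), which encodes the protein that binds the mRNA cap, and the gene called lower was Eif4ebp2 (ENSMUSG00000020091), which encodes one of its inhibitors. Eif4e had 1156, 1572 and 1117 normalized counts in knockouts 1 to 3, against 508, 648 and 536 in controls 1 to 3, and each knockout value was above each control value. The log2 change was 1.17 ± 0.20 (limma adjusted p = 0.00342), at 2.27 times the control mean. Eif4ebp2 had 2299, 2082 and 2222 normalized counts in knockouts 1 to 3, against 3568, 3806 and 3901 in controls 1 to 3, with little scatter within either group. Its log2 change was −0.77 ± 0.15 (limma adjusted p = 0.00656). Both calls held in all 16 alternatives.

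The scaffolds Eif4g1 and Eif4g2 were not called. Eif4g2, which had the highest mean of the group and encodes a scaffold that lacks the eIF4E-binding part, had 7501, 8175 and 7817 normalized counts in knockouts 1 to 3, against 6299.9, 5885 and 5821 in controls 1 to 3. Eif4g1, the main eIF4G scaffold, had 6291, 6822 and 7383 normalized counts in knockouts 1 to 3, against 5117, 5342 and 5523 in controls 1 to 3. Neither overlapped between the groups (0.38 ± 0.16 and 0.36 ± 0.16, limma adjusted p = 0.0914 and 0.117); with quantile normalization their differences were −0.212 and −0.207. Eif4a1, the helicase of the complex, had 1411, 1612 and 1502 normalized counts in knockouts 1 to 3, against 1453, 1498 and 1610.3 in controls 1 to 3, which overlapped, and the 95% interval of its log2 difference ran from −0.36 to 0.34. The pseudogene Eif4a-ps4 shares 95.72% of its 50-base stretches with Eif4a1 and took more normalized counts than it in every library, so the counts of both are uncertain. The other 7 genes, Eif4a2, Eif4a3, Eif4b, Eif4e2, Eif4enif1, Eif4g3 and Eif4h, were not called.

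Both genes of eIF5A, the factor that helps the ribosome through difficult peptide bonds and carries the amino acid hypusine, were higher in the knockout libraries. Across all genes tested, 17.7% were called higher. Eif5a (ENSMUSG00000078812) had 10157, 14560 and 12375 normalized counts in knockouts 1 to 3, against 5967, 7815 and 7362 in controls 1 to 3, all knockout values lying above all control values. Its log2 change was 0.80 ± 0.20 (limma adjusted p = 0.0183). Eif5a2 (ENSMUSG00000050192), the paralog with restricted expression, had 47.7, 30.6 and 43.2 normalized counts in knockouts 1 to 3, against 14.3, 13.3 and 9.81 in controls 1 to 3, again with no overlap and at 3.25 times the control mean. Its change was 1.61 ± 0.39 (limma adjusted p = 0.0146), and Eif5a made up 99.5% to 99.9% of the sum of the 2 genes in every library. Without control 1 or 3 the call of Eif5a was lost (limma adjusted p from 0.057 to 0.0791), as it was with quantile normalization (0.644). That of Eif5a2 was lost without control 3 (adjusted p = 0.0511) and with totals set equal (0.0546). Of the enzymes that make hypusine, Dohh, the hydroxylase, was called higher at 0.78 ± 0.21 (limma adjusted p = 0.024). Its call was lost without control 1 or knockout 2 (0.0616 to 0.0864) and with totals set equal (0.12). Dhps, the synthase, was not called, at 0.45 ± 0.29 (adjusted p = 0.245). These 2 genes were chosen after their values were seen.

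None of the 6 elongation factor genes was called by limma, and 2 of them had an unadjusted p under 0.05. All 6 changes were positive, with a median log2 value of 0.187, which was −0.155 with totals set equal and −0.117 with quantile normalization. Eef1a1, which delivers aminoacyl-tRNA and had the highest mean of all 67 genes, had 39010, 46254 and 44154 normalized counts in knockouts 1 to 3, against 28722, 30908 and 32600 in controls 1 to 3. The groups did not overlap, but the difference of 0.49 ± 0.19 missed the threshold (limma adjusted p = 0.0816, 0.0437 with the replicate block). Of the 50-base stretches of Eef1a1, 36.04% occur in other measured genes, so its count is uncertain. Eef1e1, which encodes a scaffold of the tRNA synthetase complex, had 116, 112 and 136 normalized counts in knockouts 1 to 3, against 62.7, 73.5 and 104 in controls 1 to 3, likewise without overlap (0.62 ± 0.25, limma adjusted p = 0.0899, 0.045 with the block). Eef2, the translocase, had 15904, 15005 and 16232 normalized counts in knockouts 1 to 3, against 13590, 14483 and 14043 in controls 1 to 3, at 0.16 ± 0.17 (limma adjusted p = 0.474), and its sign turned with totals set equal (−0.18) and with quantile normalization (−0.788, adjusted p = 0.00817). Eef1b2, Eef1d and Eef1g, of the exchange complex, overlapped between the groups. For Eef1g, 43.14% of the 50-base stretches occur in other measured genes.

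The 6 genes that act on elongation factors, the kinase of eEF2 and 5 methyltransferases, all had negative changes, with a median of −1.017. Of the 6, 2 were called lower, against 15.9% of all genes. Eef2k (ENSMUSG00000035064) encodes the kinase that halts eEF2. It had 722, 344 and 723 normalized counts in knockouts 1 to 3, against 1845, 1916 and 2926 in controls 1 to 3, the highest knockout value lying far below the lowest control. The log2 change was −1.95 ± 0.32 (limma adjusted p = 0.00306), to 0.268 times the control mean, and the call held in all 16 alternatives. The antisense gene Gm15774, whose exons overlap those of Eef2k, had 25.2, 28.9 and 18.9 normalized counts in knockouts 1 to 3, against 17.4, 55.8 and 27.0 in controls 1 to 3.

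Eef1akmt3 (ENSMUSG00000080115), a lysine methyltransferase of eEF1A, had the largest fall of the 67 genes. It had 2.80, 3.40 and 5.54 normalized counts in knockouts 1 to 3, against 26.4, 23.0 and 45.8 in controls 1 to 3, or an estimated 3, 2 and 5 reads in knockouts 1 to 3, against 35, 26 and 56 in controls 1 to 3. Pooled within each group and set on the deposited scale, these reads put the knockout libraries at 12.3% of the control level. The 95% exact interval ran from 5.74% to 23.4% and covers counting error only. The log2 change was −2.71 ± 0.56 (limma adjusted p = 0.00776), and without control 3 the call was lost (0.0586). Its exons overlap those of Mettl1 on the opposite strand, and Mettl1 had 81.3, 66.4 and 83.2 normalized counts in knockouts 1 to 3, against 67.2, 68.2 and 72.8 in controls 1 to 3. Eef2kmt, the methyltransferase of eEF2, had 48.5, 25.1 and 62.0 normalized counts in knockouts 1 to 3, against 66.3, 99.2 and 85.8 in controls 1 to 3, with the knockout libraries below and no overlap (−0.95 ± 0.37, limma adjusted p = 0.0768, 0.0357 without knockout 3). Eef1akmt1, Eef1akmt2 and Eef1akmt4 overlapped between the groups, and their lowest values were an estimated 8, 4 and 11 reads.

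**Figure D4:**
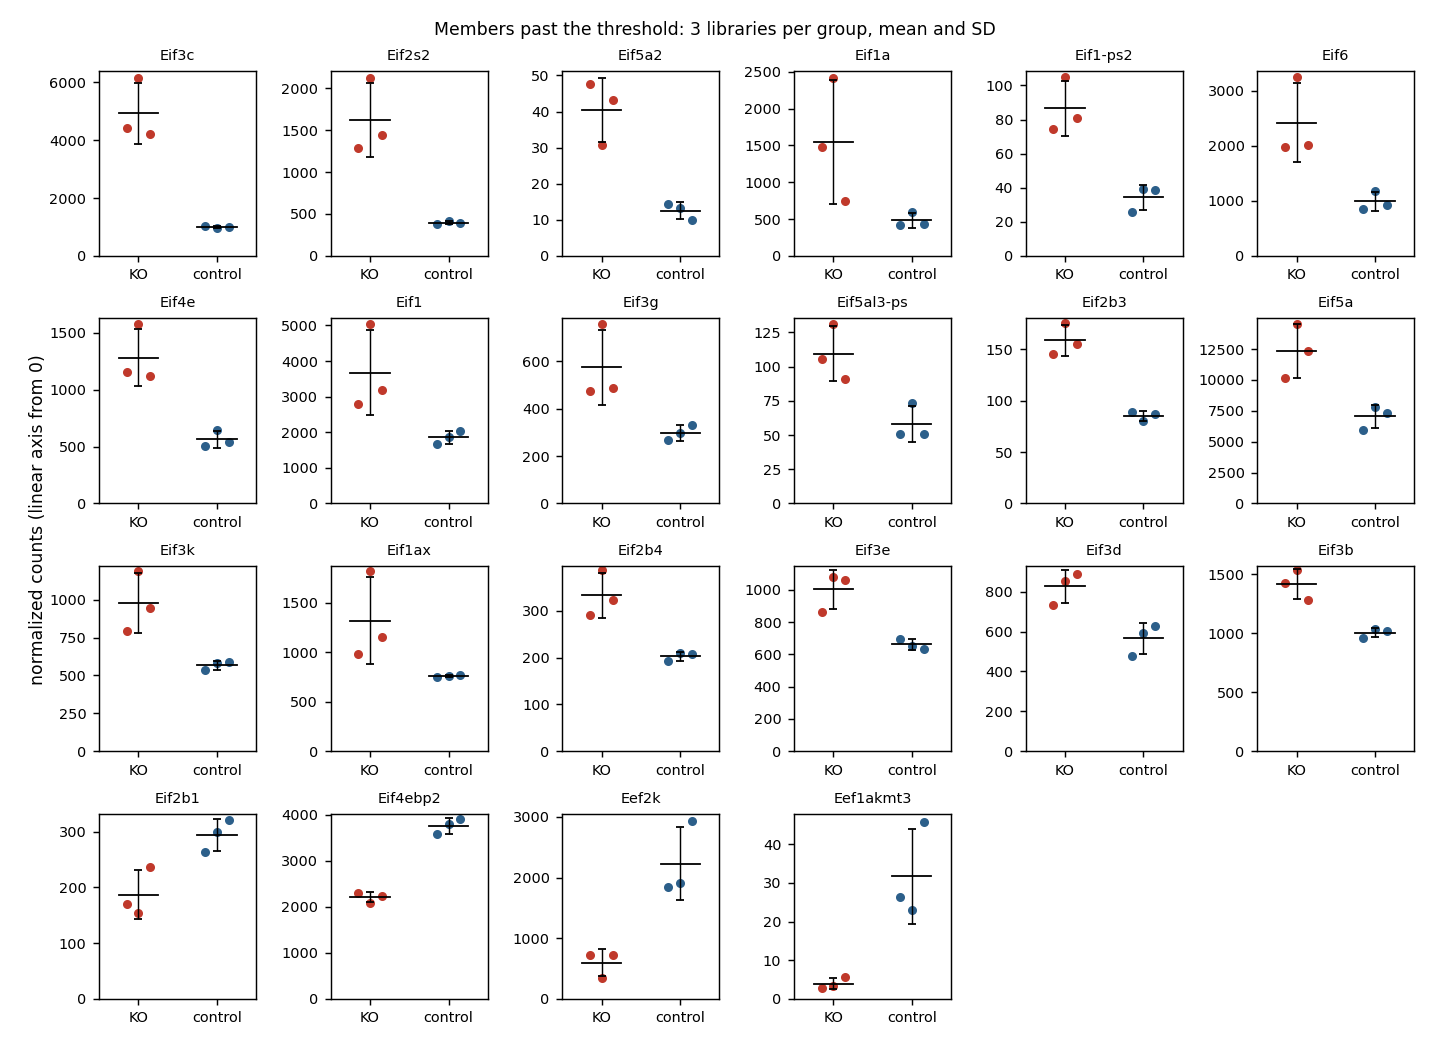
Normalized counts in each library, with mean and SD, for the 22 genes called, knockout left of control on a linear axis from 0. In each panel the 3 knockout points and the 3 control points do not overlap, as with Eif3c (4199 to 6148 in the knockout libraries and 954 to 1030 in the controls).

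Of 5 pseudogene symbols, 2 were called higher and 0 lower, against 17.7% and 15.9% of all genes. Eif1-ps2 had 74.3, 105 and 80.7 normalized counts in knockouts 1 to 3, against 25.9, 39.0 and 38.4 in controls 1 to 3 (1.31 ± 0.29, limma adjusted p = 0.0106), and Eif5al3-ps had 106, 131 and 91.3 normalized counts in knockouts 1 to 3, against 50.6, 73.4 and 50.7 in controls 1 to 3 (0.90 ± 0.27, adjusted p = 0.031). In both, the groups lay apart, and both stood at a few percent or less of the normalized counts of Eif1 and Eif5a, genes that rose too. Eif1-ps2 shares 18.28% of its 50-base stretches with Eif1, and Eif5al3-ps shares 23.62% with Eif5a, so their counts are uncertain. Without control 1 or 3 or knockout 1 or 2 the call of Eif5al3-ps was lost (limma adjusted p from 0.0619 to 0.102), as it was with totals set equal (0.127). Eif1-ps1 was not called (1.18 ± 0.45, adjusted p = 0.0718), though it was with quantile normalization (0.0398) and with adjacent animals as the replicate block (0.0493). Eif4a-ps4, the most abundant, had 2334, 3259.9 and 2886 normalized counts in knockouts 1 to 3, against 2383, 2181 and 2586 in controls 1 to 3, which overlapped (0.24 ± 0.18). Gm9892, Gm11224 and Gm7327, which share sequence with Eif2s2, Eif3c and Eif4e and are not among the 67, were called higher too: Gm9892 changed by 2.31 ± 0.24, Gm11224 by 2.24 ± 0.29 and Gm7327 by 1.05 ± 0.27 (limma adjusted p = 0.000482, 0.00103 and 0.0208). Of the 50-base stretches of Eif2s2, Eif3c and Eif4e, 10.06%, 7.25% and 5.53% occur in them, and the call of Gm7327 was lost without any 1 control (adjusted p from 0.0541 to 0.0695).

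There were 32 measured partners of translation that are not among the 67 (poly(A)-binding, regulatory, rescue and release factors). Among them 8 were called higher and 5 lower, against 17.7% and 15.9% of all genes. The median log2 change of the 32 was 0.147. The 4 with the smallest adjusted p include inhibitors of eIF4F that moved in opposite directions. Eif4ebp1, which encodes a 4E-binding protein, had 1406, 1839 and 1131 normalized counts in knockouts 1 to 3, against 83.1, 88.5 and 86.6 in controls 1 to 3, 16.9 times the control mean (4.04 ± 0.21, limma adjusted p = 2.78e-05). Pdcd4, whose product blocks the eIF4A helicase, had 196, 231 and 387 normalized counts in knockouts 1 to 3, against 2064, 2707 and 2152 in controls 1 to 3 (−3.13 ± 0.26, adjusted p = 0.00017). Neither gene's groups came near each other. The paralogs Eif4ebp1 and Eif4ebp2 thus differed in sign: Eif4ebp2 held 2201 ± 110 normalized counts in the knockout libraries, against 3758 ± 171 in the controls (SD, n = 3 each), while Eif4ebp1 held 1459 ± 357 in the knockout libraries, against 86.1 ± 2.79 in the controls.

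Ppp1r15a, which encodes the stress-induced subunit that directs a phosphatase to eIF2α, had 1420.5, 1928 and 686 normalized counts in knockouts 1 to 3, against 359, 295 and 265 in controls 1 to 3, with knockout 3 the lowest of its group and still above all controls (2.02 ± 0.35, limma adjusted p = 0.00383). Hbs1l, of a factor that rescues stalled ribosomes, had 914, 1258 and 768 normalized counts in knockouts 1 to 3, against 381, 412 and 379.5 in controls 1 to 3 (1.30 ± 0.21, adjusted p = 0.00286). Chosen after their values were seen, Ppp1r15b, the constitutive counterpart of Ppp1r15a, was higher (0.97 ± 0.19, adjusted p = 0.00648) and Mknk2, a kinase of eIF4E, lower (−1.40 ± 0.25, adjusted p = 0.00406). The other calls were Larp1, Pabpc1, Dohh and Rps6kb2, which were higher, and Paip2b, Paip1 and Gigyf2, which were lower. Of the 16 alternatives, Rps6kb2 lost its call in 9, Gigyf2 in 8, Pabpc1 in 6, Dohh in 4 and Larp1 in 3. Among these, leaving out any 1 control lost the calls of Rps6kb2 (adjusted p from 0.102 to 0.153), Gigyf2 (0.0975 to 0.165) and Pabpc1 (0.0676 to 0.0732), leaving out control 1 or knockout 2 that of Dohh (0.0864 and 0.0616), and leaving out control 3 that of Larp1 (0.0541). Leaving out knockout 1 or 2 also lost that of Rps6kb2 (0.0687 and 0.0991), and leaving out any 1 knockout that of Gigyf2 (0.0553 to 0.091). With totals set equal Rps6kb2 (0.424), Pabpc1 (0.131) and Larp1 (0.125) were not called, nor were they with quantile normalization (0.131, 0.736 and 0.214). Dohh lost its call with totals set equal too (0.12).

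Of 8 measured mitochondrial translation factors 0 were called higher and 2 lower, against 17.7% and 15.9% of all genes. The median log2 change of the 8 was −0.27. Guf1, a mitochondrial elongation factor, had 94.4, 79.5 and 72.8 normalized counts in knockouts 1 to 3, against 139, 130.3 and 142 in controls 1 to 3 (−0.74 ± 0.21, limma adjusted p = 0.0287). Mtif3, a mitochondrial initiation factor, had 46.1, 26.1 and 46.8 normalized counts in knockouts 1 to 3, against 76.3, 74.9 and 69.1 in controls 1 to 3 (−0.92 ± 0.31, adjusted p = 0.0477). Both lay lower in every knockout library than in every control. Leaving out any 1 control lost both calls, as did leaving out knockout 2 or 3 for Guf1 (limma adjusted p from 0.0554 to 0.0958 over these) and knockout 1 or 2 for Mtif3 (0.0535 to 0.131).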

How the data were processed

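The authors deposited normalized counts per gene, a signal that is never negative, for 6 epidermis libraries. The submitters' processing notes list Partek 9.0.20.0202, TopHat2 2.1.0 and the build mm39. The sources used here do not name the normalization or the use of strand in counting. Estimated depth was 6460000 to 9110000 reads per library, 1 read being worth 0.755 to 1.70 normalized counts. Between 81.9% and 84.0% of values of up to 20 reads were whole within 0.02 of a read, so no count model was run.

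Genes above 1 in at least 3 libraries (12872) were tested as log2(value + 1) with limma 3.58.1 in R 4.3.3 (eBayes with a trend), Benjamini-Hochberg adjusted at 0.05 over all of them. On this scale the change of low genes is understated. The fit was tested on simulated data. Symbols were matched for 12771 IDs (123 had none) with GENCODE M21, which describes GRCm38 and gave exon lengths, overlaps and shared 50-base stretches. Of 65 promoter records, 54 had their bases after the start within a transcript of the gene.

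The genes, lists and alternatives were chosen with earlier results of these data known. Values are printed for the called genes of each role (up to 6) and its most abundant gene, for up to 4 called genes of each other list and for Eif4ebp1. Other genes named were chosen after their values were seen. Each knockout title carries the number after a control's (217 after 216, 242 after 241, 251 after 250). Over genes, the deviations of such neighbours from their group means had correlations of 0.367, 0.228 and 0.362, against −0.281 to −0.072 for the other pairings. Within each group the deviations of a gene cancel out, so positive values for neighbours bring negative ones elsewhere. Neighbours were treated as pairs in the replicate block on the evidence of these same values, since no litter is named. Libraries were taken as separate animals because each title has its own number.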

Additional observations from a re-analysis of the deposited data

How the results depend on the processing

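Of 22 calls among the translation factors, 6 (Eif2s2, Eif3c, Eif4e, Eif4ebp2, Eef2k and Eif6) held in all 16 alternatives, and 7 held without any single library. The number of all genes called was 4328, and it lay between 2631 and 4464 when 1 library was left out. The count of factors called higher was 18 and lay between 7 and 19 without 1 library, and the count called lower was 4 and lay between 3 and 5. Without knockout 1, 2 or 3, 25.4%, 17.9% and 28.4% of the 67 were called higher, against 15.9%, 13.3% and 17.9% of all genes. In the same fits 5.97%, 4.48% and 7.46% of the 67 were called lower, against 14.2%, 12.1% and 16.9% of all genes. With totals set equal the counts were 9 and 8. With knockout 1 alone against the controls, chosen after seeing the data, they were 5 and 3, of 2711 genes called. There the lone library is assumed to vary like the controls. With the replicate block of adjacent animal numbers they were 25 and 5 (37.3% and 7.46%), while calls over all genes rose to 5781 (22.9% higher and 22% lower), and the block lost none of the 22 calls. Other pseudocounts, other filters and the robust fit left 18 and 4, quantile normalization gave 14 and 6 (20.9% and 8.96%, against 17.2% and 17.2% of all genes), and dropping the trend gave 14 and 3 (20.9% and 4.48%, against 15.6% and 14.5%).

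Over the 16 alternatives the sign turned in 26 of the 67 genes, none of them among the 22 called. Of the genes described with values, with totals set equal the log2 difference was −0.18 for Eef2, −0.106 for Eif4a-ps4 and −0.084 for Eif5, and with quantile normalization it was −0.788 for Eef2, −0.23 for Eif4a-ps4, −0.142 for Eif5, −0.207 for Eif4g1, −0.212 for Eif4g2 and −0.147 for Eef1a1. With knockout 1 alone it was 0.122 for Eif2ak2, −0.027 for Eif4a-ps4 and 0.263 for Hnrnpu. Over the libraries left out one at a time it ranged from −0.232 to 0.091 for Eif2ak3, −0.929 to 0.323 for Eif3j1, −0.061 to 0.035 for Eif4a1, −0.046 to 0.679 for Eif5 and −0.146 to 0.152 for Hnrnpu. The cause was not tested. Genes with a few reads, such as Eef1akmt3, are limited by depth.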
